A study of Oryza sativa Indica Group with 4 samples.

Results

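To ask where the temperature response of togr1-1 departed from that of wild type, the reads of all 4 libraries were combined into 1 value per locus, the log2 ratio of 30 over 25 °C in togr1-1 minus the same ratio in the wild type. This value is called the difference of responses below. It was calculated for the 16127 loci that had at least 100 reads over the 4 libraries, with the transcript models of a locus summed. These are 56.7% of the 28458 loci with a read, and they held 99.4% of all reads. A positive difference means that 30 °C raised the transcript more, or lowered it less, in togr1-1 than in the wild type. A difference of 1 is a 2-fold difference between the responses.

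The libraries came from leaf blades of the fourth leaf of 22-day-old seedlings of the indica rice variety Zhongxian 3037, either wild type (WT) or the togr1-1 mutant (tog1 in the sample labels), a spontaneous recessive mutant of that variety. Both genotypes had grown for 4 days before they were divided between chambers at 25 and 30 °C for a further 18 days, under 12 h of light and 12 h of dark at 80% humidity. Each condition was 1 library made from leaf blades pooled into 100 mg. Pooling averages over plants, but no spread between pools could be measured, and fewer cells of a type and less RNA per cell cannot be told apart.

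TOGR1 is a DEAD-box RNA helicase of the nucleolus, the part of the nucleus where ribosomal RNA is made. Helicases of this kind unwind RNA helices with energy from ATP, and the relatives of TOGR1 in yeast and human cells act in the processing of ribosomal RNA precursors. The togr1-1 allele replaces 1 amino acid of the protein, and the plants become dwarf in warm conditions but grow almost like the wild type in the cool. A difference of responses at a locus shows where the reads of the genotypes differed by an amount that changed with temperature. Its relation to the growth of the plants was not tested.

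The libraries held from 11959859 to 12371522 counted reads, and a tested locus had a median of 836 reads over the 4. Over the tested loci, Pearson's r between the log2 reads of 2 libraries was highest for WT and togr1-1 at 25 °C (0.945, n = 16127 loci). It was lowest for togr1-1 at 25 °C and WT at 30 °C (0.900), the pair that differs in both factors. The other pair that differs in both, WT at 25 °C and togr1-1 at 30 °C, had an r of 0.918, close to the 0.919 of WT at the 2 temperatures. The files give locus identifiers without gene names, and 0 loci matched the gene table at hand, so the leaf identity of the samples could not be checked against marker genes and loci without a published name are described by their identifiers.

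The responses of the genotypes differed at least 2-fold at 2441 loci (15.1% of those tested), of which 1482 had a positive (9.19%) and 959 a negative difference (5.95%). Counting error alone can give such a value at few reads. The reads of each locus in the 4 libraries were therefore also compared by Fisher's exact test, two-sided, with Benjamini-Hochberg adjustment over all tested loci. Calls required a difference of at least 2-fold and an adjusted p of no more than 0.001. On this rule 1480 loci (9.18%) were called, 953 of them with a higher response in togr1-1 (5.91%) and 527 with a lower one (3.27%). The test compares these libraries, not the conditions, and takes each read as an independent count. When the edgeR model was given a spread between libraries, with an assumed coefficient of variation of 0.2, 352 loci passed, and 286 of these were higher. Loci passed in edgeR, here and below, at an adjusted p of at most 0.05, a looser cutoff than the 0.001 of the calls on reads. Of the 2441 loci, 961 did not pass the test on reads, and a further 2364 loci passed it with a difference under 2-fold.

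**Figure D1:**
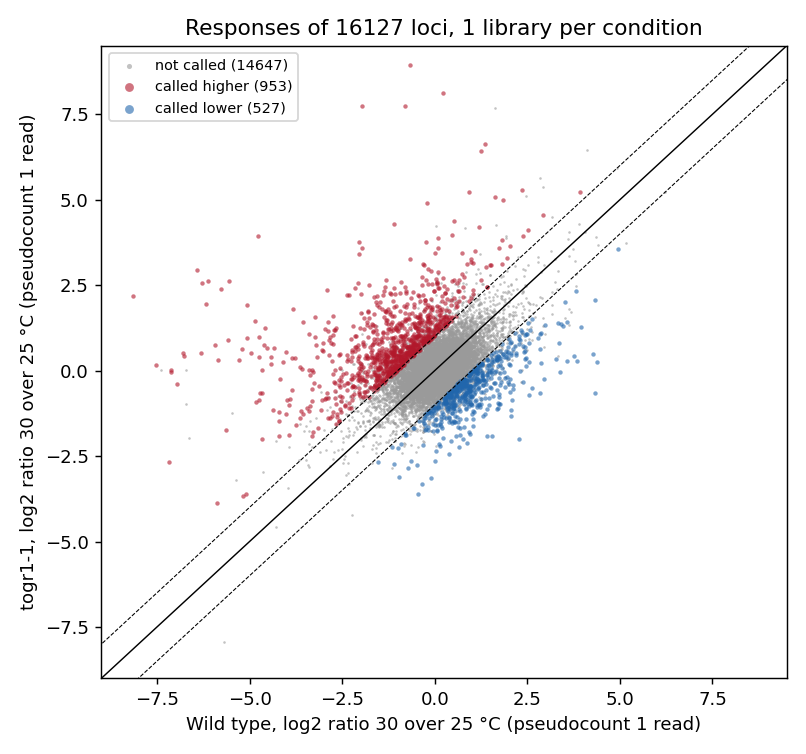
Each point is 1 of 16127 loci, placed by its log2 ratio of 30 over 25 °C in WT (x axis) and in togr1-1 (y axis), with a pseudocount of 1 read. The solid line marks equal responses and the dashed lines a 2-fold difference. The 953 loci called higher (red) reach far to the left and to the top, whereas the 527 called lower (blue) stay closer to the lines.

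Among the called loci with a positive difference, the most frequent form was a called fall in WT at 30 °C with no call in togr1-1. Responses within a genotype were called by an exact conditional binomial test with the same thresholds, which called 2075 of the tested loci in WT (12.9%) and 1765 in togr1-1 (10.9%). By direction, 1064 rose (6.6%) and 1011 fell (6.27%) in WT, while 1140 rose (7.07%) and 625 fell (3.88%) in togr1-1. Of the 953 loci, 372 (39.0%) were called lower in WT alone, with a median log2 ratio of -1.63 there and 0.09 in togr1-1. Another 254 (26.7%) were called higher in togr1-1 alone, with medians of 1.58 in togr1-1 and -0.14 in WT. At 71 loci (7.45%) WT was called lower and togr1-1 higher. Both genotypes were called in the same direction at 24 loci that rose and 36 that fell, where the responses differed in size. The remaining 196 (20.6%) were called in neither genotype, with the medians on opposite sides of 0 (-0.70 in WT and 0.66 in togr1-1).

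The loci with a negative difference had the same forms in other proportions. Of the 527, 194 (36.8%) were called higher in WT alone, with a median log2 ratio of 1.58 there and -0.03 in togr1-1. A further 115 (21.8%) were called lower in togr1-1 alone. Opposite calls, with a rise in WT and a fall in togr1-1, were made at 8 loci (1.52%), against the 71 of the positive side. At 187 loci (35.5%) no response was called in either genotype. The responses had opposite signs at 640 of the 953 and 369 of the 527 called loci, and at 5460 of all 16127. Because the same reads made the calls, these numbers describe the called loci and test nothing further.

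The difference of responses can equally be read as the genotype difference at 30 °C minus that at 25 °C. At 25 °C 1059 of the tested loci (6.57%) were called between togr1-1 and WT, and at 30 °C 1374 (8.52%). At 25 °C togr1-1 was higher at 345 (2.14%) and lower at 714 (4.43%), and at 30 °C it was higher at 864 (5.36%) and lower at 510 (3.16%). Of the 953 loci with a positive difference, 378 (39.7%) were higher in togr1-1 at 30 °C and not called at 25 °C. Another 227 (23.8%) were lower in togr1-1 at 25 °C and not called at 30 °C, so that at these loci the genotypes differed in the cool and not, past the thresholds, in the warmth. At 84 loci (8.81%) togr1-1 was called lower at 25 °C and higher at 30 °C. Of the 527 loci with a negative difference, 182 (34.5%) were lower in togr1-1 at 30 °C alone and 83 (15.7%) were higher at 25 °C alone, while 7 were called at both temperatures in opposite directions. The gap between the genotypes was wider at 30 °C than at 25 °C at 61.2% of the loci called higher and 62.6% of those called lower, against 50.4% of all tested loci.

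With 4 libraries, the differences at a locus divide into 3 contrasts that use all of them with the same counting error, namely the sum of both responses (temperature), the sum of both genotype differences (genotype) and the difference of responses. Over the tested loci the robust SD, taken from the interquartile range, was 0.95 on the log2 scale for temperature, 0.70 for genotype and 0.57 for the difference of responses. The order was the same among the 3145 loci with at least 3200 reads, with 0.80, 0.51 and 0.37. The summed response of both genotypes was thus more widely spread over loci than the difference between their responses. An absolute log2 value of at least 1 was reached by 31.8% of loci for temperature, 21.6% for genotype and 15.1% for the difference of responses. For temperature and genotype the value is a sum of log2 ratios, so 1 is less than a 2-fold change in each genotype or at each temperature on average. The center of the last was near 0, with a median of -0.03 and quartiles at -0.38 and 0.38.

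The tails of the difference of responses were unequal. A log2 difference of at least 2 was called at 357 loci on the positive side and 100 on the negative side, and one of at least 3 at 155 and 18. At least 4 was called at 69 loci with a positive and 3 with a negative difference, and at least 5 at 43 and 0. Without the test on reads, the numbers at 3 or more were 165 and 18. The other contrasts were closer to even at that size, with 349 positive and 274 negative loci for temperature and 184 and 129 for genotype. The imbalance was also present where depth was high. Among the 10985 loci with at least 400 reads, 62 had a difference of at least 3 and 2 one of -3 or less. Among the 15823 loci with at least 10 reads in every library, these numbers were 81 and 6.

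**Figure D2:**
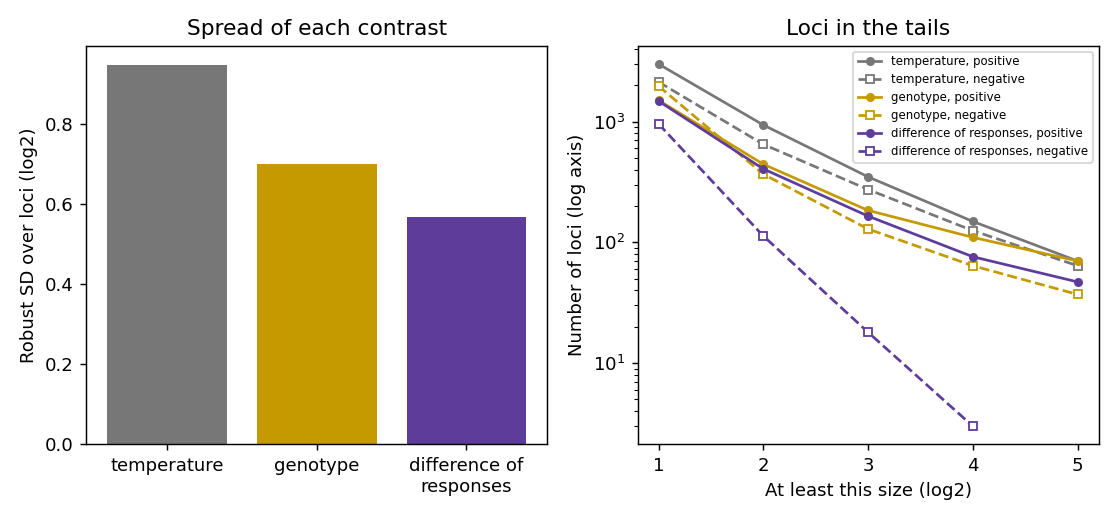
The left panel gives the robust SD over 16127 loci of the temperature, genotype and difference-of-responses contrasts in log2 units, without error bars because each value is a spread. The right panel gives the number of loci (log axis) at or beyond each size, with filled circles and solid lines for positive and open squares and dashed lines for negative values. The negative side of the difference of responses drops to 18 loci at 3 and 3 loci at 4, where the positive side has 165 and 76, and it has no point at 5.

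The 155 loci with a called difference of at least 3 had a median of 103 reads in WT at 25 °C and 13 at 30 °C. In togr1-1 the medians were 33 at 25 °C and 117 at 30 °C. A large positive difference itself requires WT at 25 °C and togr1-1 at 30 °C to be high together relative to the remaining pair, so these levels largely restate the choice of loci. The highest count was in WT at 25 °C at 67 of them and in togr1-1 at 30 °C at 84. Of the 155, 119 were called lower in WT, 88 were called higher in togr1-1 and 52 were both. At 113 of them WT at 25 °C and togr1-1 at 30 °C both lay above the remaining pair of libraries. On the negative side the 18 loci had medians of 14 and 74 reads in WT at 25 and 30 °C, and of 29 and 12 in togr1-1. There 16 were called higher in WT and 4 lower in togr1-1, where reads were low at both temperatures. The part of the low reads in this was not tested.

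Named examples show the forms. The largest called difference was that of LOC_Os09g38350, which had 287 reads in WT at 25 °C and 0 at 30 °C, and 1 and 8 reads in togr1-1. Only WT at 25 °C was high. The difference was 10.34 with the pseudocount of 1 read and 6.98 with 5 reads, and the exact conditional 95% interval began at 7.37 without an upper end (Fisher's exact test on reads, adjusted p = 1.1e-13). The WT log2 response had a 95% Clopper-Pearson interval with an upper end of -6.24 and no lower end. In togr1-1 the log2 ratio was 2.20 (interval 0.13 to 8.50) and was not called. The genotypes differed in the cool, where togr1-1 had a log2 ratio of -7.19 to WT (interval -13.49 to -5.69). The locus therefore enters through a transcript that was nearly unread in 3 of the libraries.

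LOC_Os07g33440 had the largest difference among the loci called in opposite directions on the positive side. It had 86 reads in WT at 25 °C and 0 at 30 °C, against 3 and 29 reads in togr1-1. The high libraries were WT in the cool and togr1-1 in the warmth. The difference was 9.35, or 6.27 with 5 reads as the pseudocount, and its interval began at 6.88 (Fisher's exact test on reads, adjusted p = 4.6e-23). The togr1-1 response was 2.93 (1.61 to 5.66), and the interval of the WT response had an upper end of -4.48 and no lower end.

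On the negative side, LOC_Os08g32750 had the largest called difference. It had 17 reads in WT at 25 °C and 354 at 30 °C, and in togr1-1 28 reads at 25 °C and 17 at 30 °C. Only WT at 30 °C was high, and the remaining libraries lay within 2-fold of each other. The log2 response was 4.33 in WT (3.71 to 5.21) and -0.66 in togr1-1 (-1.65 to 0.23), and the difference was -4.99 (-6.33 to -3.89, Fisher's exact test on reads, adjusted p = 4.9e-19). LOC_Os04g52700 showed the crossed form, with 14 reads in WT at 25 °C and 70 at 30 °C, against 44 and 10 reads in togr1-1. Its response was 2.27 in WT (1.51 to 3.30) and -2.01 in togr1-1 (-3.27 to -1.10), a difference of -4.28 (-5.91 to -3.06, adjusted p = 3.9e-13 by Fisher's exact test on reads). In the edgeR model with an assumed coefficient of variation of 0.4, LOC_Os04g52700 no longer passed (adjusted p = 0.23), whereas LOC_Os08g32750 was at 0.043.

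**Figure D3:**
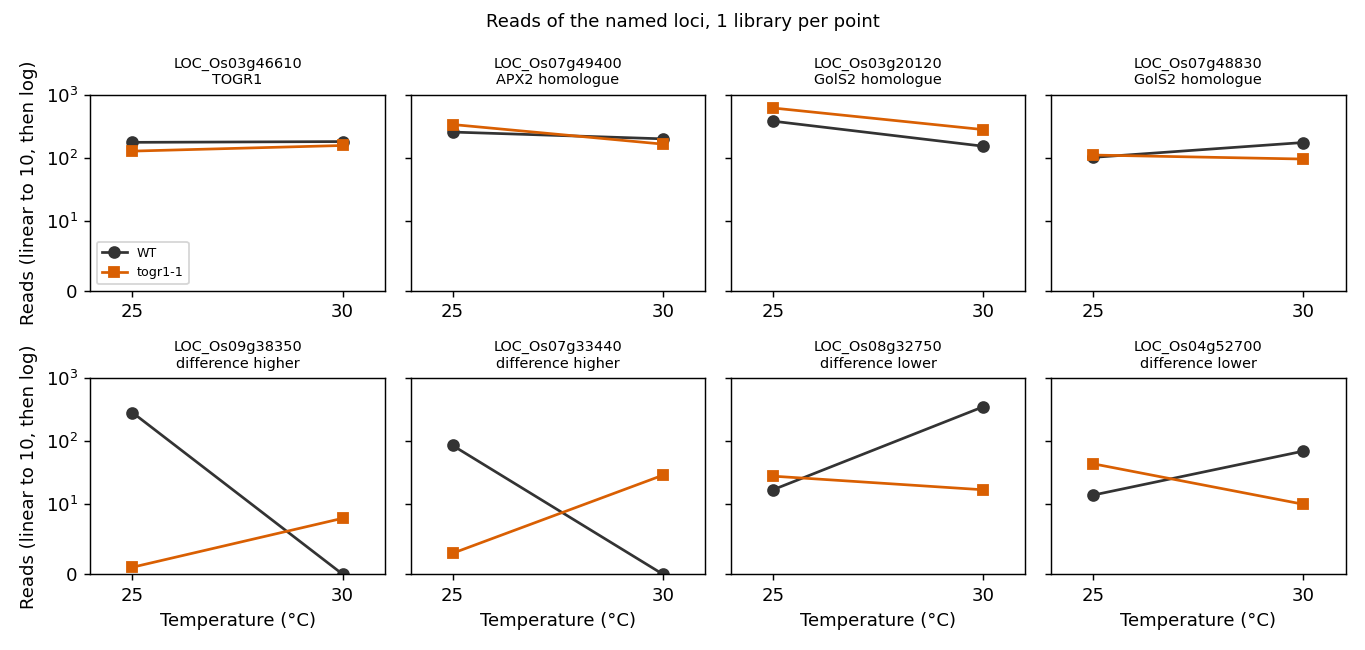
Reads of 8 loci at 25 and 30 °C in WT (circles) and togr1-1 (squares), 1 library per point, on an axis that is linear to 10 reads and logarithmic above. The upper row holds TOGR1 and the homologues of APX2 and GolS2, none of which was called for a difference of responses. The lower row holds, for each direction, the largest called difference and the largest among the loci called in opposite directions in the genotypes. The lines of all 4 cross.

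None of the 4 loci that the study names was called for a difference of responses. In the paper's temperature treatments these loci were measured by qRT-PCR after hours (TOGR1) or a day of heat stress (the homologues). The libraries here came from 18 days of growth at 25 or 30 °C, so their values do not repeat those measurements. TOGR1 itself (LOC_Os03g46610) had 175 and 180 reads in WT and 127 and 156 in togr1-1 at 25 and 30 °C. Since the allele is an amino acid substitution, reads over the locus do not check the genotype labels. The difference was 0.25 (exact conditional 95% interval -0.22 to 0.72, adjusted p = 0.43 by Fisher's exact test on reads), an interval that lay within 2-fold in either direction.

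Ascorbate peroxidases remove hydrogen peroxide with ascorbate. The APX2 homologue LOC_Os07g49400 had 255 reads in WT at 25 °C and 199 at 30 °C, and 336 and 164 in togr1-1. It was lower at 30 °C in both, with a log2 ratio of -0.33 in WT that was not called and a called fall in togr1-1 whose log2 ratio had an interval of -1.29 to -0.73. The difference of -0.68 (-1.07 to -0.29) had an adjusted p of 0.0020 in Fisher's exact test on reads and missed both thresholds.

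Galactinol synthases make the galactinol from which raffinose sugars are built. The homologues of GolS2 did not share a pattern. LOC_Os03g20120 had 380 and 152 reads in WT and 615 and 279 in togr1-1 at 25 and 30 °C, so that 30 °C was lower in both genotypes and togr1-1 was higher at both temperatures. Its responses of -1.29 and -1.11 were both called, and their difference was 0.18 (-0.17 to 0.53). LOC_Os07g48830 had 101 and 174 reads in WT and 110 and 95 in togr1-1, so that only WT at 30 °C was raised. The responses were 0.81 in WT (0.45 to 1.18) and -0.18 in togr1-1 (-0.60 to 0.23). The difference of -0.99 (-1.56 to -0.44) had an adjusted p of 0.0012 by Fisher's exact test on reads, just outside both thresholds, and 0.83 in the edgeR model with a coefficient of variation of 0.2.

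Under a strict rule, no single library stood apart from the rest at most called loci. A library was taken to stand apart when it was at least 2-fold from the nearest of the others and these lay within 2-fold of each other. Among the 953 loci called higher, WT at 30 °C stood apart as low at 130 (13.6%), WT at 25 °C as high at 70 (7.35%), togr1-1 at 30 °C as high at 57 (5.98%) and togr1-1 at 25 °C as low at 38 (3.99%). Among the 527 called lower, WT at 30 °C stood apart as high at 55 (10.4%), togr1-1 at 30 °C as low at 32 (6.07%), WT at 25 °C as low at 21 (3.98%) and togr1-1 at 25 °C as high at 8 (1.52%). Among the called loci, WT at 30 °C was thus the library that stood apart most often in both directions. Over all tested loci it stood apart as low at 208 (1.29%) and as high at 117 (0.725%), the latter next to 116 (0.719%) for WT at 25 °C as high. The other shares of all tested loci as low were 0.713% and 0.477% for togr1-1 at 25 and 30 °C, and 0.415% for WT at 25 °C. Those as high were 0.192% and 0.577% for togr1-1 at 25 and 30 °C. By this rule, neither a lone library nor a crossed pair stood apart at 633 of the loci called higher (66.4%) and 406 of those called lower (77.0%). A crossed pair also had to lie within 2-fold of each other, as had the remaining pair. These loci therefore include some with an extreme library or pair whose remaining libraries were unequal. LOC_Os09g38350 and LOC_Os07g33440 are among them.

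The libraries could also be split by pairs, taking loci at which the lower library of one pair was at least 2-fold above the higher library of the other. Split by temperature, 276 loci had both libraries at 30 °C above both at 25 °C, and 174 the reverse. Split by genotype, 111 loci were higher in both togr1-1 libraries and 45 in both WT libraries. Crossed, 48 loci were higher in WT at 25 °C and togr1-1 at 30 °C, and 5 in the opposite pair. With any gap instead of 2-fold, the crossed split had 1417 and 1899 loci and the split by genotype 1924 and 2926. For these splits the direction of the imbalance thus depended on the size of the gap. The split by temperature had 4822 and 3139 loci with any gap, the same direction as at 2-fold.

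**Figure D4:**
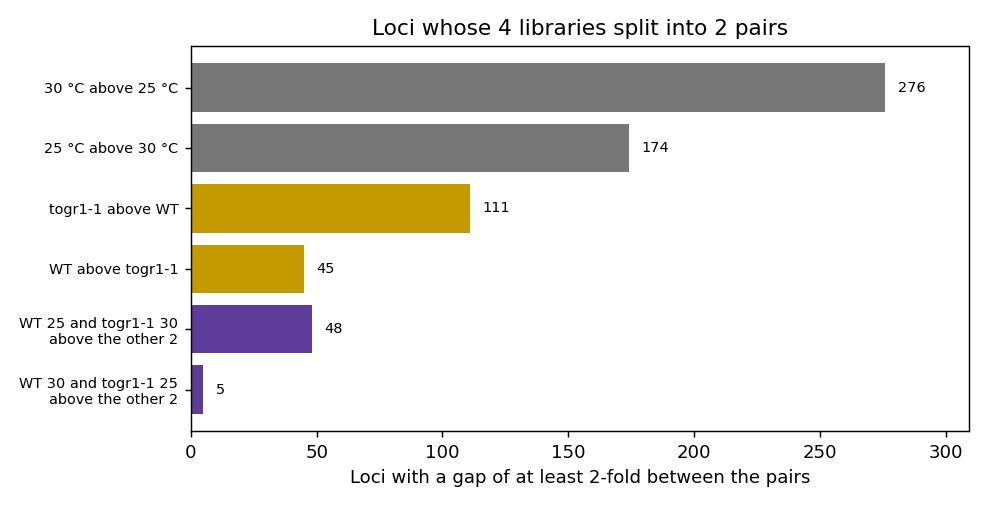
Number of tested loci whose 4 libraries fall into 2 pairs with a gap of at least 2-fold, for the pairs by temperature, by genotype and crossed. The bars for the crossed pairs are 48 and 5 loci, against 276 and 174 for temperature.

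The called loci also carried a visible share of each library. Those called higher took 10.3% of the reads in WT at 25 °C and 4.82% at 30 °C, and 6.83% and 9.22% in togr1-1. The 10 most-read of them accounted for 6.41% and 2.86% in WT and for 4.28% and 5.52% in togr1-1, and the single most-read one for 3.73%, 1.95%, 2.26% and 3.33% in the same order. Without these 10 loci, the shares were 3.93%, 1.96%, 2.55% and 3.71%. Because the loci were called for being higher in WT at 25 °C and togr1-1 at 30 °C, which libraries have the larger shares largely follows from the choice of loci. The loci called lower took 2.12% and 3.67% in WT and 2.88% and 1.97% in togr1-1.

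The spread of the difference of responses exceeded counting error at every depth. Among the 2460 loci with 100 to 199 reads its robust SD was 0.98 on the log2 scale, against 0.51 from counting. Among the 1385 loci with at least 6400 reads it was 0.35, against 0.057. The share called was 8.25% in the former and 5.99% in the latter, and highest at 13.7% among the 2769 loci with 400 to 799 reads. Around a model in which both genotypes had the same response, the common coefficient of variation in edgeR was 0.24, which holds both the differences of responses and the variation between pools. With 1 library per condition these cannot be told apart.

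**Figure D5:**
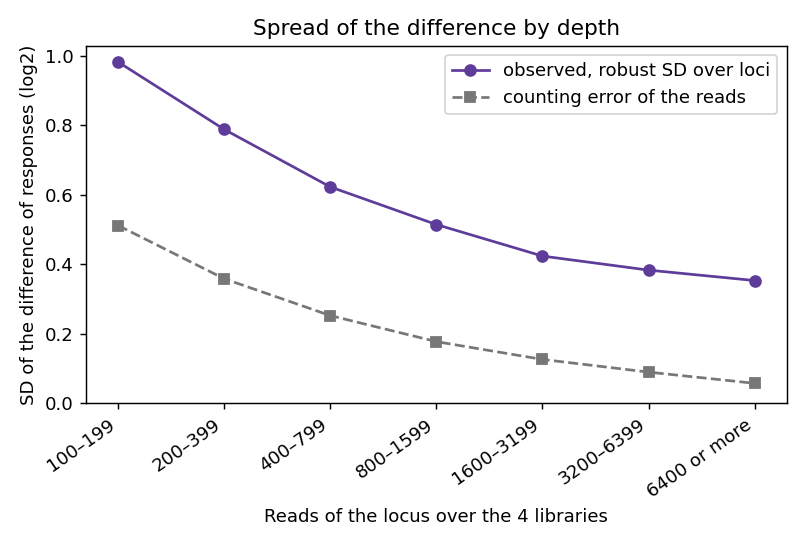
Robust SD over loci of the difference of responses (circles) and the SD that counting error of the reads gives (squares), both in log2 units, in classes of reads per locus over the 4 libraries. The observed values go from 0.98 to 0.35 and stay above the counting values, which go from 0.51 to 0.057.

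By the chromosome number in the identifiers, called loci were found on all 12 chromosomes, with shares from 7.71% on chromosome 8 to 10.8% on chromosome 9 and medians of the difference from -0.07 to -0.01. Tested loci that follow each other in identifier order had differences with a Pearson's r of 0.10 and a Spearman's rho of 0.06 (16115 pairs, which are not independent). Of 1479 called loci with a following neighbour, 12.3% had a called neighbour, against 9.18% of all tested loci that were called. Both members were called in 182 pairs, in the same direction in 131 and in opposite directions in 51, where 64.4% of all calls were higher. The longest run of neighbours called in 1 direction held 6 loci, all higher. Adjacent genes can be near-identical copies, among which the counting could have divided reads, and the part of this was not tested. Among the 31 tested loci within 500 identifier units of TOGR1, 1 was called higher and 3 lower, against 5.91% and 3.27% of all tested loci, and the median difference was 0.07.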

How the data were processed

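RNA from 4 pooled leaf-blade samples, 1 per genotype and temperature, was made into poly(A) libraries and sequenced on the Illumina HiSeq 2000. The authors deposited raw read counts per transcript model, RPKM values, and their own log2 ratios, p-values and FDR between the temperatures, which were not used. The deposited RPKM equalled the usual formula from counts, length and library total to within 4.91e-06%. Transcript lengths are those the authors deposited, in bases. The aligner, counter, genome build and annotation release are not given in the sources used here. Reads divided between near-identical, overlapping or antisense genes could not be told apart.

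Both tables were joined on transcript model, with 0 reads where a model was absent, and models were summed by locus. Libraries were scaled by their totals, with a pseudocount of 1 read for log2 ratios. With 1 library per group, 0 residual degrees of freedom remain for the difference of responses, so no quasi-likelihood or DESeq2 test could be fitted. Fisher's exact test, exact conditional binomial tests and their intervals (95%) cover counting error only. The tests were checked on simulated counts drawn with counting error only, so the check does not cover variation between pools.

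The named loci are those the paper names and, in each direction, the largest called difference and the largest among the loci called in opposite directions. Members, thresholds and lists were chosen with earlier results of these data known. Lists by gene function were left out, since no names were paired with identifiers. The alternatives were other scalings, read minimums, pseudocounts and thresholds, single transcript models, thinned libraries and edgeR with a set or estimated coefficient of variation. Size factors came from DESeq2 1.42.0 and models from edgeR 4.0.16, both run in R 4.3.3. The exact tests used scipy 1.17.1 and numpy 2.4.6, tables were joined in pandas 2.3.3 under Python 3.11.15, and plots were drawn with matplotlib 3.10.9.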

Additional observations from a re-analysis of the deposited data

Results flagged for a closer look

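The genotypes differed under the same temperature contrast at 79 loci that were called for the difference of responses and called in opposite directions within the genotypes, 71 of them lower in the wild type and higher in togr1-1. In edgeR, 79 of them passed with an assumed coefficient of variation of 0.2 and 11 with an assumed 0.4. With the coefficient estimated around the model of equal responses, 68 passed. These loci were chosen from the same reads for changes of at least 2-fold in each genotype. The smallest absolute log2 difference of any locus that passed at 0.2 was 1.97, so their passing there largely follows from the choice.

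The 4 loci chosen by size were marked by the same comparison, tested on reads and not across plants. Their differences of responses were 10.34 for LOC_Os09g38350, 9.35 for LOC_Os07g33440, -4.99 for LOC_Os08g32750 and -4.28 for LOC_Os04g52700. The part of variation between pools in these values was not tested.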

How the results depend on the processing

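TMM and DESeq2 size factors moved the difference of responses by 0.03 and 0.04 for all loci and kept the number called within 1.5 times, with 67.0% and 68.7% of the called loci higher against 64.4% by total reads. In the same direction, 1442 and 1419 of the 1480 loci were called again. The pseudocounts of 0.5 and 5 reads, no read minimum, single transcript models, thinning to the smallest total and, chosen after seeing the data, at least 10 reads in every library also kept the numbers of loci called, higher and lower within 1.5 times.

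A minimum of 400 reads left 971 called loci (621 higher and 350 lower), by testing fewer loci, and a 4-fold threshold left 457 (357 and 100). With an adjusted p of at most 0.05, 833 loci were lower. In edgeR with an assumed coefficient of variation of 0.2, 352 loci passed (286 higher and 66 lower), with 0.4 44 passed (43 and 1), and with the coefficient around the model of equal responses, chosen after seeing the data, 224 passed (198 and 26). That last coefficient counts differences of responses as noise. A library or crossed pair stood apart at 441 called loci, and at 73 with a gap of 4-fold, where 0 were crossed pairs against 30. The named loci kept their direction and side of the thresholds under the scalings and a pseudocount of 5 reads. No paired analysis was possible because each group has 1 library and the labels give no replicate numbers. For the same reason no library could be left out.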

Other observations

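Loci with short transcripts were called more often. Among the 2078 loci whose longest model was under 1000 bases, 12.6% were called, and among the 2489 of at least 3000 bases 6.87%, with 3.50% higher and 3.37% lower. The short loci had fewer reads (a median of 598 against 982) and a wider spread of the difference (robust SD 0.67 against 0.48 on the log2 scale). The part of depth in this was not tested.

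At 1017 loci at least 2 transcript models had 100 reads or more each. The median range of the difference over the models of such a locus was 0.68 on the log2 scale. Counting error is part of this range, and its share was not tested. Of the 103 called loci of this kind, which were called on the sum of their models, 94 had every such model on the side of the locus and 9 had a model on the other side. Models of 1 locus were called in opposite directions at 4 of 1017 loci.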
